A study of Mus musculus with 16 samples.

Results

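Genes of signalling by GABA, the transmitter that inhibits neurons of the adult spinal cord together with glycine, were followed across 16 arrays of mouse spinal cord RNA: the GABA-A receptor subunits Gabra2, Gabrg1 and Gabrb1, the GABA-B receptor subunit Gabbr1, the GABA-making enzyme Gad1 and the chloride importer Slc12a2. They were chosen by gene symbol in the platform annotation, and they are 6 of 8252 genes named there. Each was measured by 1 probe set, all 6 passed the filter on low values, a mean log2 intensity above 7.62, and none was at the floor on any array. The spastic means of Gabra2 and Gabrg1, at 7.45 and 7.42, lay below that filter, so both were tested only through their levels in the control and B6C3Fe arrays. The arrays fell into 8 titled control, 6 titled spastic and 2 titled B6C3Fe, the name of a hybrid mouse stock. Spastic mice carry a mutation in Glrb, the beta subunit of the glycine receptor. The titles give no genotype for any array and no strain for the control and spastic arrays, and no further treatment or allele is given for any group.

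The control arrays came from 4 titles, a female and a male at each of 9 and 12 months. The spastic arrays came from 5 titles, namely 2 titled female at 2 months, 1 titled male and sev at 3 months, 1 titled male at 3 or more months and 1 titled female at 6 months with an M in its title. The B6C3Fe arrays came from 1 title, a male at 1 month. Arrays lettered a and b of 1 title were averaged, which left 10 samples. The titles do not say what the letters mean, and taking such arrays as repeats of 1 sample is an assumption. With 3 or more months taken as 3, every spastic mouse was younger than every control and older than the B6C3Fe male, so age and group cannot be told apart between spastic and control. Nothing in the labels says that samples came from separate animals, so p-values measure the spread between these samples, which may be partly technical.

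GABA-A receptors are pentameric chloride channels, usually of alpha, beta and gamma subunits, that open when GABA binds. GABA-B receptors are dimers that act more slowly, through G proteins on potassium and calcium channels, and Gabbr1 encodes the subunit that binds GABA. Gad1 makes GABA from glutamate. Slc12a2 (NKCC1) carries chloride into cells and Slc12a5 (KCC2) carries it out, and their balance sets whether an opened GABA-A or glycine receptor channel inhibits a neuron.

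All 3 GABA-A subunits lie in 1 gene cluster on mouse chromosome 5, where the gene order in RefSeq's annotation of GRCm38.p6 is Gabrg1, Gabra2, Cox7b2, Gabra4 and Gabrb1. Cox7b2 and Gabra4 are not named in the platform annotation used here. The 250 bases before the start of each cluster gene and of Gabbr1 are shown because the cluster subunits and Gabbr1 differed in opposite directions between the groups. Sequences are RefSeq's for GRCm38.p6, 5′ to 3′ on the gene's strand, and capitals mark the GC box letters GGGCGG, the core of many Sp1 sites. Gabrg1 is at chr5:70842618-70842867 and Gabra2 at chr5:71095850-71096099, both on the minus strand. Gabrb1 is at chr5:71657671-71657920 and Gabbr1 at chr17:37045716-37045965, both on the plus strand.
Gabrg1: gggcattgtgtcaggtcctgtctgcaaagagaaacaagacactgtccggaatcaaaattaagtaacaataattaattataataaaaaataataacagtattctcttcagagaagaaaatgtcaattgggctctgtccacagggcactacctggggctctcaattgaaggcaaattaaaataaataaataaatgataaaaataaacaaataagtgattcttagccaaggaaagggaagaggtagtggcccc
Gabra2: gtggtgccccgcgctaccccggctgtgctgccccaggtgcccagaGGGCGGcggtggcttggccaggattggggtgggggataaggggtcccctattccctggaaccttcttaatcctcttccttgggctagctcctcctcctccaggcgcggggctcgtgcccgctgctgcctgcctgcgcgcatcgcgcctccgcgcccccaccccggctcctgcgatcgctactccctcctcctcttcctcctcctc
Gabrb1: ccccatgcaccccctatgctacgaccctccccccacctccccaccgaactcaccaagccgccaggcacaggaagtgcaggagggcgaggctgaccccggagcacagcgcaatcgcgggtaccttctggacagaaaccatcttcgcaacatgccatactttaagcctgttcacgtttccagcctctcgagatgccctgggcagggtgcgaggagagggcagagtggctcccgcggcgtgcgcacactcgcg
Gabbr1: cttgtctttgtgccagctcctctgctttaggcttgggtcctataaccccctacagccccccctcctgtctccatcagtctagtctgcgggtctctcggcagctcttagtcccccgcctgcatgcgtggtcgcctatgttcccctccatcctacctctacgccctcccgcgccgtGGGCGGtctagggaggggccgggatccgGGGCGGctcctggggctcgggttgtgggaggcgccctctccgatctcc

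The Gabrg1 window was AT-rich, with 35.6% G and C and 1 CpG, and 5.4% of 32817 mouse promoter windows of this length had a lower share. The other windows were rich in G and C. Gabra2 had 70.0% with 18 CpGs, Gabrb1 64.4% with 18 CpGs, and Gabbr1 66.0% with 16 CpGs, where the median over all windows was 52.4% with 6 CpGs. The GC box, sought on both strands, was found in 32.7% of all windows. Gabra2 holds it 205 bases before the start and Gabbr1 at 76 and 48 bases before it. Gad1, on chromosome 2, holds it 8 bases before its start on the opposite strand, and also the TATA box letters TATAAA on that strand at 141 bases, letters found in 12.4% of windows. The core of the cyclic-AMP element, TGACG, and the E-box CACGTG, found in 17.7% and 6.0% of all windows, were in none of the 5 genes looked up. A second Gabrb1 start listed by RefSeq had 50.8% G and C in its window. Of the 3 cluster windows shown, Gabrg1 thus stood apart in base composition from Gabra2 and Gabrb1.

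Of the 6 genes, 4 were lower and 1 was higher in spastic than in control cord at an adjusted p under 0.05 (limma, Benjamini-Hochberg over 6427 probe sets). In the same comparison 19.8% of all probe sets passed, 9.83% higher and 9.93% lower. Gabra2, Gabrg1, Gabrb1 and Slc12a2 fell, Gabbr1 rose, and Gad1 did not pass. The samples of the groups did not overlap for 5 of the 6 genes, where 19.5% of all probe sets showed no overlap. Single arrays did not overlap for Gabrg1, Gabbr1 and Slc12a2, where 8.01% of all did not. The 6 genes were chosen with earlier results of these data known. Their counts beside the shares of all probe sets are therefore a description and no test of the set. Glrb itself was 5.41-fold lower in spastic samples, at 10.57 ± 0.47 (SD, n = 5) against 13.00 ± 0.12 (n = 4) in controls (adjusted p = 0.000311). All levels are log2 of the deposited intensity, and levels of different probe sets are not comparable. In whole cord, fewer cells of a type and less RNA per cell cannot be told apart.

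**Figure D1:**
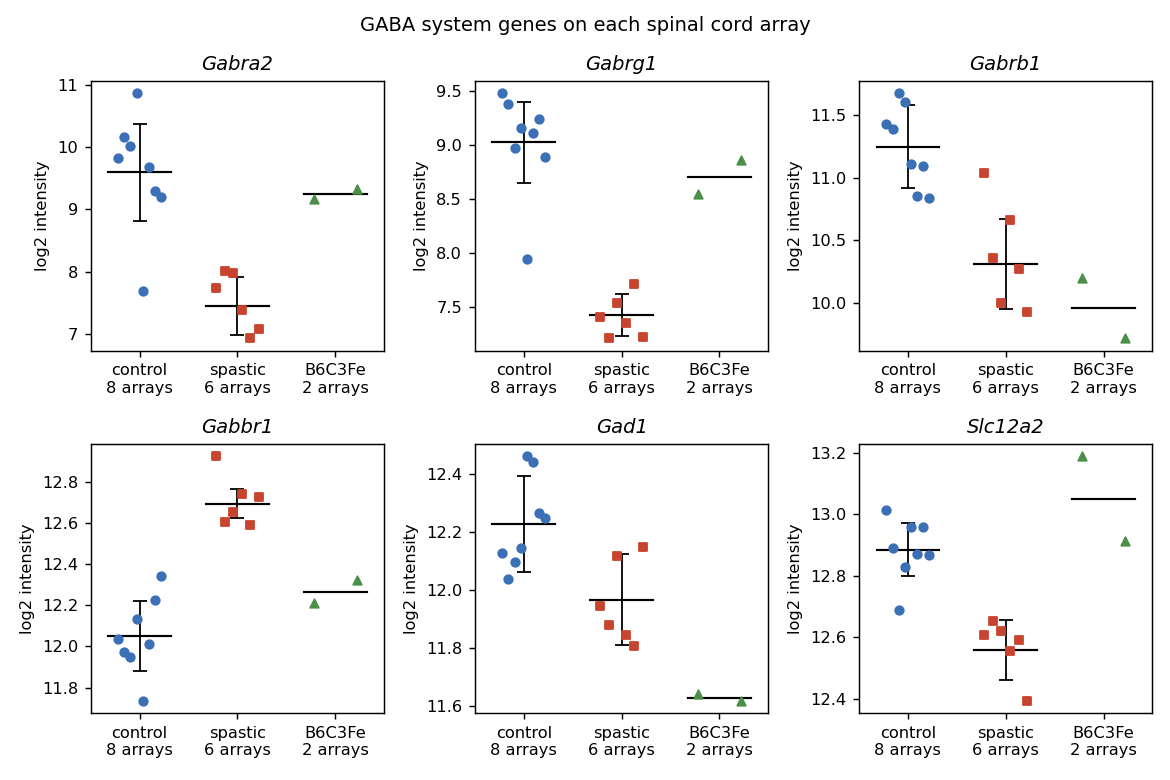
Log2 intensity of the 6 genes on each array (points; 8 control, 6 spastic, 2 B6C3Fe), with group means over samples (lines) and SDs over samples (bars; none for the single B6C3Fe sample). The Gabrg1, Gabbr1 and Slc12a2 panels show no overlap between control and spastic arrays, and in the Gabra2 panel 1 control array at 7.69 lies inside the spastic range.

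Gabra2 encodes an alpha subunit, which forms part of the GABA site and of the benzodiazepine site. Its level was 8.69 and 9.25 in the 9-month female and male controls and 9.99 and 10.44 in the 12-month female and male. The spastic samples had 7.39 and 6.93 at 2 months, 7.98 in the sample titled sev, 7.08 at 3 or more months and 7.88 at 6 months. Every spastic sample lay below every control. The B6C3Fe sample, at 9.25, lay within the control range. The spastic level was 4.31-fold lower than control, a log2 difference of -2.11 (SE 0.34, 95% interval -2.86 to -1.36, adjusted p = 0.00296). In intensity units, control arrays ran from 207 to 1860 and spastic arrays from 122 to 259.

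Gabrg1 encodes a gamma subunit. The 9-month controls had 8.53 in the female and 9.06 in the male, and the 12-month controls 9.43 and 9.06. The spastic samples had 7.35 and 7.71 at 2 months, 7.53 in the sev sample, 7.22 at 3 or more months and 7.30 at 6 months. This was the tightest of the 3 subunits within the spastic group, with an SD of 0.20 against 0.37 in controls. The highest spastic sample, at 7.71, lay well below the lowest control. The B6C3Fe sample had 8.70, which was in the control range. Gabrg1 was 3.03-fold lower in spastic samples (log2 difference -1.60, SE 0.21, 95% interval -2.06 to -1.14, adjusted p = 0.00157).

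Gabrb1 encodes a beta subunit, which also lines the GABA site. Its control samples had 10.98 and 10.96 at 9 months and 11.41 and 11.64 at 12 months, female first. The spastic samples had 10.66 and 10.28 at 2 months, 10.002 in the sev sample, 9.93 at 3 or more months and 10.70 at 6 months. The groups did not overlap by sample, but 1 spastic array of the 6-month female reached 11.04, above the lowest control array at 10.83. Gabrb1 was 1.95-fold lower in spastic samples (log2 difference -0.96, SE 0.18, 95% interval -1.37 to -0.56, adjusted p = 0.0059). The B6C3Fe sample, at 9.96, was within the spastic range rather than the control range. With the B6C3Fe arrays counted among the controls the difference was -0.77 and no longer passed (adjusted p = 0.0538).

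Gabbr1 was the 1 gene of the 6 that rose. Its control samples had 11.87 and 12.28 at 9 months and 12.01 and 12.04 at 12 months. The spastic samples had 12.74 and 12.59 at 2 months, 12.65 in the sev sample, 12.73 at 3 or more months and 12.76 at 6 months. The spastic samples were close together, with an SD of 0.072, and all lay above the controls and above the B6C3Fe sample at 12.27. Gabbr1 was 1.57-fold higher in spastic cord (log2 difference 0.65, SE 0.099, 95% interval 0.44 to 0.87, adjusted p = 0.00229).

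Gad1 had 12.45 and 12.26 in the 9-month controls, female first, and 12.08 and 12.12 in the 12-month controls. The spastic samples had 11.84 and 11.81 at 2 months, 12.12 in the sev sample, 12.15 at 3 or more months and 11.91 at 6 months. The 2 spastic samples titled male overlapped the 12-month controls. The B6C3Fe sample, at 11.63, was the lowest of all 10. The spastic minus control difference was -0.25 (SE 0.11, 95% interval -0.49 to -0.01), which did not pass over all probe sets (adjusted p = 0.133 by limma). It was just past the threshold with every array as its own replicate, at -0.26 (adjusted p = 0.033). Without the 9-month female control it was -0.13 (adjusted p = 0.367).

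Slc12a2 had 12.91 in both 9-month controls, 12.95 in the 12-month female and 12.76 in the 12-month male. The spastic samples had 12.56 and 12.59 at 2 months, 12.62 in the sev sample, 12.39 at 3 or more months and 12.63 at 6 months. No spastic array reached a control array, although the shift was small. The B6C3Fe sample had the highest level, at 13.05. Slc12a2 was 1.26-fold lower in spastic cord (log2 difference -0.34, SE 0.091, 95% interval -0.54 to -0.13, adjusted p = 0.0258). This call was lost without the 9-month male control (adjusted p = 0.0722), the 12-month female control (0.0764), the first 2-month spastic female (0.0591) or the spastic sample titled male of 3 or more months (0.072), with limma in each case.

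The B6C3Fe sample splits the 6 genes by position. For Gabra2, Gabrg1 and Gabbr1 it stood within the control range of samples, for Slc12a2 just above it, and for Gabrb1 and Gad1 below it. Spastic minus B6C3Fe was -1.61 for Gabra2, -1.28 for Gabrg1, 0.49 for Gabbr1 and -0.55 for Slc12a2, with adjusted p between 0.0974 and 0.173 (limma). For Gabrb1 it was 0.19 (95% interval -0.51 to 0.89) and for Gad1 0.41 (adjusted p = 0.261). None of the 6 passed, where 2.05% of all probe sets did and 20.3% had an unadjusted p under 0.05. Unadjusted p was under 0.05 for Gabra2 (0.0198), Gabrg1 (0.00452), Gabbr1 (0.0159) and Slc12a2 (0.00523) in the limma fit. Counting repeat arrays as replicates, Gabrg1, Gabbr1 and Slc12a2 passed (adjusted p = 0.0253, 0.0327 and 0.00963). Slc12a2 also passed with the sample as a random block (0.027) and with no filter (0.047), and Gabrg1 without the 9-month female control (0.0419), in limma fits.

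B6C3Fe minus control was -1.15 for Gabrb1 (adjusted p = 0.125) and -0.66 for Gad1 (adjusted p = 0.146). The other differences were -0.50 for Gabra2, -0.32 for Gabrg1, 0.17 for Gabbr1 and 0.21 for Slc12a2, with adjusted p of 0.566 or more. None of the 6 passed in the limma fit, where 0.389% of all probe sets did and 15% had an unadjusted p under 0.05. Counting repeat arrays as replicates, Gabrb1 and Gad1 both passed (adjusted p = 0.0124 and 0.0092). The sample as a random block gave 0.0334 and 0.0226. B6C3Fe was taken as 1 sample on 2 arrays, so these passes rest on its 2 arrays counted apart. With the arrays averaged, its spread is taken from the other groups. These comparisons share their control or spastic samples with the comparison of spastic and control, so their values stand side by side and are not independent. A single title, male at 1 month, stands for B6C3Fe, so its age, sex and stock cannot be told apart.

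**Figure D2:**
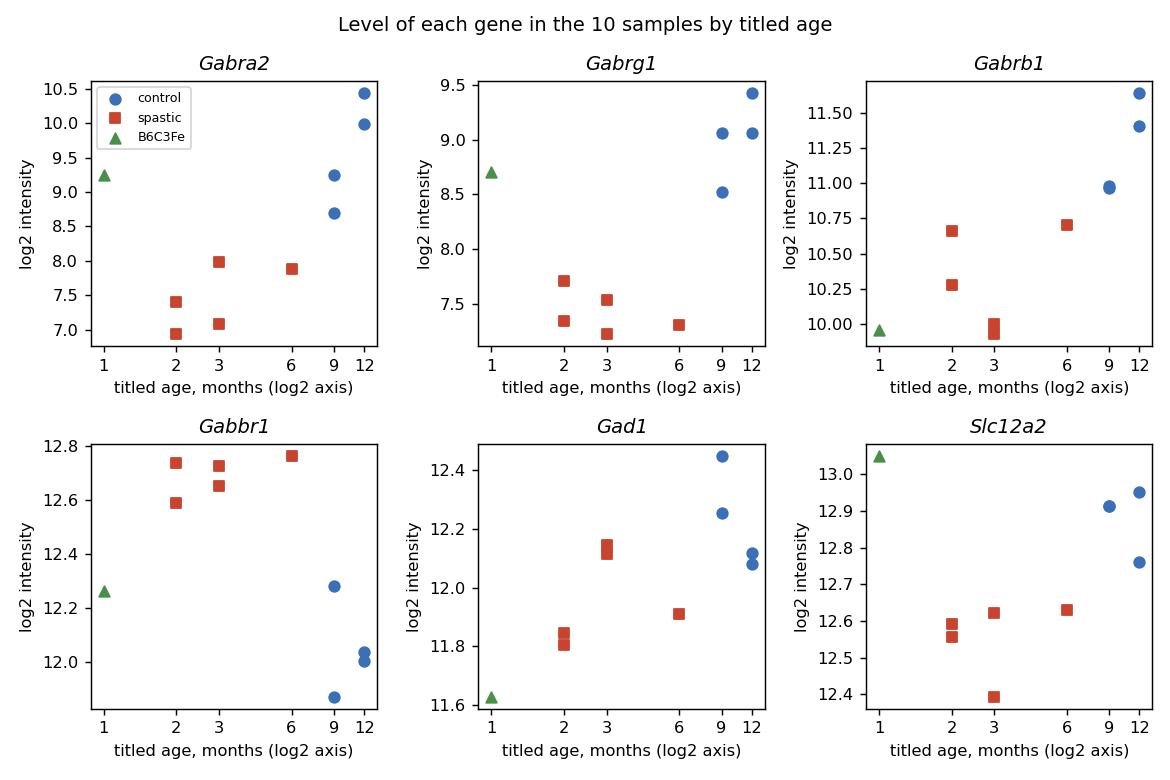
Log2 intensity of the 6 genes in the 10 samples against titled age in months on a log2 axis (3 or more months drawn at 3). The youngest sample, B6C3Fe at 1 month, lies within or just above the control range for Gabra2, Gabrg1, Gabbr1 and Slc12a2, and below every control for Gabrb1 and Gad1.

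Within the controls, the largest differences with titled age were those of Gabra2 and Gabrb1, and no difference passed. By limma, the 12-month minus 9-month difference was 1.25 for Gabra2 (SE 0.36, unadjusted p = 0.00627, adjusted p = 0.89). For Gabrb1 the difference was 0.55 (unadjusted p = 0.0375, adjusted p = 0.906). It was 0.45 for Gabrg1 (unadjusted p = 0.153), -0.25 for Gad1 (unadjusted p = 0.125) and -0.06 for both Gabbr1 and Slc12a2. Over all probe sets none passed by limma, and 5.38% had an unadjusted p under 0.05. With B6C3Fe counted as control and age added on a log2 scale, 4 of the 5 calls were kept by limma: Gabra2 at -1.72 (adjusted p = 0.015), Gabrg1 at -1.46 (0.00634), Gabbr1 at 0.58 (0.0134) and Slc12a2 at -0.43 (0.0297). Gabrb1 was -0.36 (adjusted p = 0.236) and Gad1 0.06 in that fit. With log2 of age in the model and B6C3Fe left out, an alternative chosen after seeing the data, the difference was -0.86 for Gabra2, -1.65 for Gabrg1, -0.51 for Gabrb1, 0.73 for Gabbr1, -0.25 for Gad1 and -0.30 for Slc12a2. None of these passed, and 3 of all probe sets did. The B6C3Fe sample is the only young one outside the spastic group.

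Titled sex and the title sev moved none of the 6 past the threshold. Female minus male ran from -0.30 for Gabra2 to 0.27 for Gabrb1, and 6.05% of all probe sets had an unadjusted p under 0.05, with 0 called by limma. Xist and Eif2s3y levels matched the titled sex on 14 of 16 arrays, and both spastic arrays titled male had the female pattern. All 6 spastic arrays thus had the female pattern. The comparison by titled sex therefore cannot decide whether sex altered these genes. With sex taken from Xist, Slc12a2 no longer passed at -0.38 (adjusted p = 0.0654), and the other 4 calls were kept. The sev sample minus the other spastic samples was 0.55 for Gabra2, 0.17 for Gabrg1, -0.24 for Gabrb1, -0.16 for Gabbr1, 0.13 for Gad1 and 0.18 for Slc12a2. Each had an adjusted p of 0.995, and 1 probe set in all passed, or 0.0156%. Only 1 sample carries that title, and its spread was taken from the other samples.

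Arrays a and b of 1 title were compared as repeats. The titles do not say that they are, so their differences may hold more than repeat error. The median size of the a minus b difference over 6 titles was 0.31 for Gabra2, 0.25 for Gabrg1, 0.25 for Gabrb1, 0.15 for Gabbr1, 0.036 for Gad1 and 0.11 for Slc12a2. The 9-month female control had the most discordant pair over the whole array, with 5.8% of probe sets differing by more than 1 against 1.29% to 4.03% for the other titles. Its arrays read 7.69 and 9.69 for Gabra2 and 7.94 and 9.11 for Gabrg1, where no other title differed by more than 0.84 and 0.35. Trak2, Glul and Slc32a1 differed between these arrays by -1.66, -1.88 and 1.03. On the same arrays Gabrb1 differed by 0.25, Gabbr1 by -0.28, Gad1 by 0.02 and Slc12a2 by 0.09. Without array a of that title, the spastic minus control difference was -2.38 for Gabra2, -1.76 for Gabrg1 and 0.62 for Gabbr1.

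A measure of RNA integrity, 1 of 4 read, was also higher in the spastic samples, though it did not pass after adjustment. The Pcx probe sets near the 3' and 5' ends of that transcript, quality controls on this array, gave a log2 ratio of 1.73 ± 0.22 (SD, n = 4) in controls, 2.38 ± 0.38 (n = 5) in spastic samples and 1.78 in B6C3Fe. The difference of 0.65 had an exact two-sided permutation p of 0.0238, where 0.0159 is the smallest that these group sizes allow, and 0.0952 after adjustment over 4 such ratios. The ratios of Gapdh, actin and the transferrin receptor differed by -0.06, -0.32 and -0.51, with exact permutation p of 0.77, 0.302 and 0.222. B6C3Fe stood apart on the actin ratio, at -2.25 (arrays -3.29 and -1.21), where controls had 0.26 ± 0.42 and spastic samples -0.06 ± 0.43, and the part of this in its levels was not tested. Array a of the 9-month female control, low for Gabra2 and Gabrg1, had a Pcx ratio of 2.72, inside the spastic array range of 1.997 to 2.98, and its partner had 1.31. The Gapdh and actin ratios of array a, at 0.99 and 1.27, lay above the spastic array ranges of -0.67 to -0.10 and -0.56 to 0.71. Its transferrin receptor ratio, at 0.52, lay inside the spastic array range of 0.02 to 1.82. With the Pcx ratio in the model, the differences were -1.81 for Gabra2, -1.16 for Gabrg1, -0.84 for Gabrb1, 0.71 for Gabbr1, -0.44 for Gad1 and -0.24 for Slc12a2. None of the 6 passed there, and 9 of all probe sets did. All kept their direction, and Gabbr1 had the lowest adjusted p, at 0.0679. The part of RNA integrity in these differences was not tested beyond these values.

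**Figure D3:**
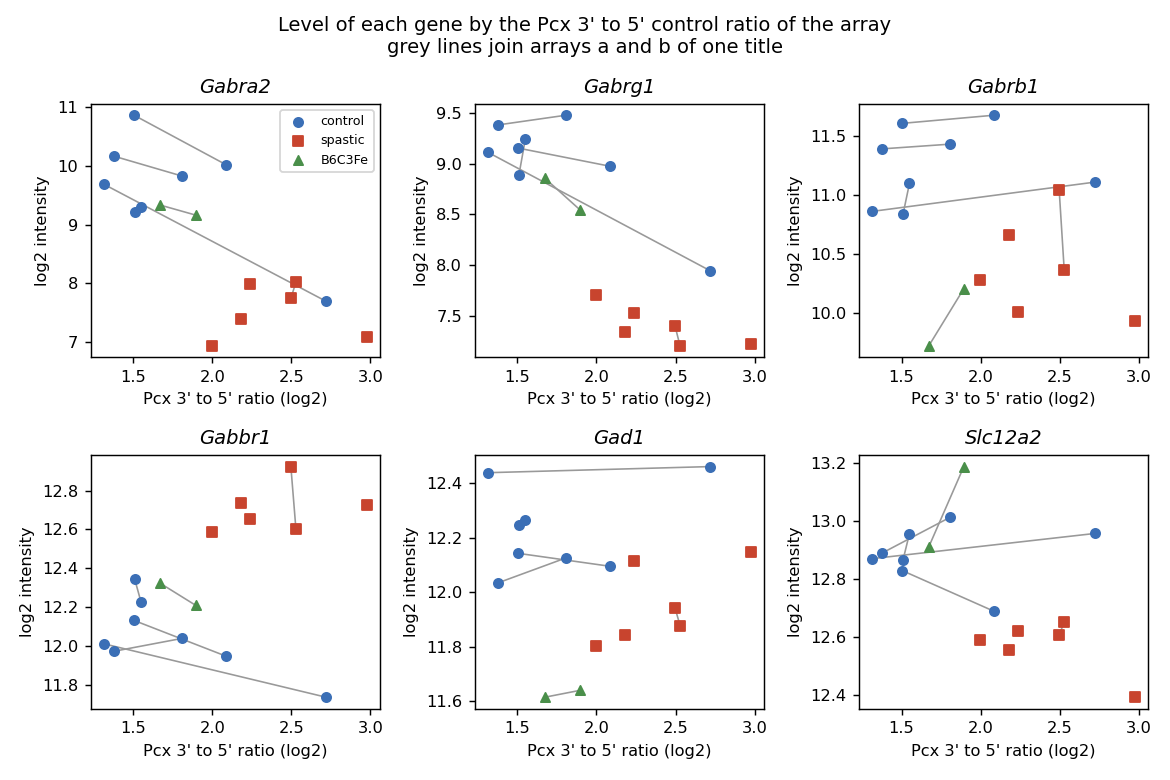
Log2 intensity of the 6 genes on each array against the log2 ratio of the Pcx 3' to 5' probe sets, with grey lines joining arrays a and b of 1 title. The long line in the Gabra2 and Gabrg1 panels joins the 9-month female control arrays, at Pcx ratios of 1.31 and 2.72.

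Lists of genes of the GABA system were read beside the 6. Of 86 listed genes, 54 were on the array and 37 were tested, of which 3 were higher and 9 lower in spastic cord, or 32.4%. Leaving out the 6 genes, 2 of 31 were higher and 5 lower, or 22.6%, which is near the 19.8% of all probe sets. The median difference of the 37 was 0.11, and that of all probe sets was -0.02. The 6 genes therefore make up 5 of the 12 calls in these lists.

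Among receptor subunits, 3 of the 10 on the array passed the filter, and those were Gabra2, Gabrg1 and Gabrb1. Of 19 listed subunit genes, 9 were not named in the annotation. The other 7 on the array were below the filter and not tested. Gabra3, another alpha subunit, read 8.01 ± 0.73 (SD, n = 4) in controls with 1 of 8 arrays at the floor of 5.93, was at the floor on all 6 spastic arrays, and read 7.30 in B6C3Fe. Gabrg3 read 7.70 ± 0.28 in controls, 7.14 ± 0.21 in spastic samples and 7.74 in B6C3Fe. Gabrb2 read 7.53 ± 0.47, 6.97 ± 0.84 and 7.41 in the same order, and Gabrd was at the floor on all 16 arrays. Gabrr2, a rho subunit, read 6.42 ± 0.35 in controls, 7.24 ± 0.46 in spastic samples and 7.50 in B6C3Fe.

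Among the GABA-B receptor and its partners, Gabbr1 was the 1 higher gene and Gnai1 the 1 lower gene of 6 tested. Over all probe sets 9.83% were higher and 9.93% lower. Gnai1, a G protein alpha subunit, fell by 0.55 on the log2 scale (adjusted p = 0.0167), and its other probe set read -2.003. That call was lost without the 9-month male (adjusted p = 0.0518) or the 12-month male control (0.0505), and the difference was -0.26 with the Pcx ratio in the model (0.472). The median of the 6 was 0.06. Gnai2, Gnao1, Gng2 and Kcnj9 did not pass, with differences of 0.28, -0.07, -0.37 and 0.18. Rgs4, which ends G protein signals, was below the filter and at the floor on 5 of 6 spastic arrays against 1 of 8 control arrays.

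Genes of GABA synthesis and vesicle loading gave 2 higher and 0 lower of 4 tested, beside 9.83% higher and 9.93% lower among all probe sets. Slc32a1, which loads GABA and glycine into vesicles, rose from 12.67 ± 0.30 to 13.31 ± 0.13 (log2 difference 0.65, SE 0.14, adjusted p = 0.0106), and B6C3Fe read 13.08. Glul, the glial enzyme that makes glutamine, rose by 1.499 (adjusted p = 0.00809), but its other probe set read 0.03. By limma, the Slc32a1 call was lost in 6 of 21 alternative fits and the Glul call in 5 of 21, with adjusted p up to 0.328 and 0.355. Neither was lost when 1 sample was left out. Spastic minus B6C3Fe was 0.25 for Slc32a1 (adjusted p = 0.591) and 1.94 for Glul (adjusted p = 0.0924). Gad2, the second GABA-making enzyme, was below the filter at 7.85 ± 0.63 in controls, 6.72 ± 0.38 in spastic samples and 7.72 in B6C3Fe. None of the 3 tested uptake genes passed, where 19.8% of all probe sets did, and their differences were 0.24 to 0.33.

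Among genes of chloride transport, Slc12a2 and Car2 were called lower and none of the 9 tested was called higher. Over all probe sets 19.8% were called, 9.93% lower and 9.83% higher. Car2, a carbonic anhydrase that is also on the oligodendrocyte marker list, fell by 0.52 (adjusted p = 0.0175). Its call was lost without the 9-month male control (adjusted p = 0.052), the 12-month male control (0.0534) or the spastic sample titled male of 3 or more months (0.054). Slc12a5, the neuronal chloride exporter, read 8.76 ± 0.35 in controls, 8.47 ± 0.50 in spastic samples and 8.31 in B6C3Fe. Its difference of -0.31 did not pass (95% interval -0.88 to 0.27, adjusted p = 0.439), and that interval holds both 0 and the size of the fall in Slc12a2. Leaving out 1 sample moved it between -0.54 (without the 9-month female control) and -0.15 (without the spastic sample of 3 or more months), and it was 0.45 with the Pcx ratio in the model. The related exporters Slc12a4 and Slc12a7 read 0.27 and 0.08, and Stk39, a kinase that activates Slc12a2, read -0.26. Wnk1, which acts on Stk39, read 0.21 on the tested probe set and -1.28 and -0.71 on its others, and Clcn3 read 0.12 against -1.26, -0.32 and -0.86, so neither gene has a settled direction.

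Of 12 tested genes listed for moving or anchoring GABA-A receptors, 3 were lower and 0 higher. Among all probe sets, 9.93% were lower and 9.83% higher. The list also holds Mocs2, whose tie is to the cofactor pathway of gephyrin and not to receptor movement or anchoring. Trak2, an adaptor for kinesin transport that was first found as a partner of GABA-A subunits, read 9.96 ± 0.32 in controls, 8.203 ± 0.47 in spastic samples and 9.84 in B6C3Fe, a difference of -1.74 (SE 0.24, adjusted p = 0.00186). Mocs2, which shares the molybdenum cofactor pathway with gephyrin, fell by 0.58 (adjusted p = 0.0067), and Ubqln1, which stabilises receptor subunits, by 0.49 (adjusted p = 0.0406), with -0.77 on its other probe set and 0.016 with the Pcx ratio in the model. The Ubqln1 call was lost in 7 of 10 fits that left out 1 sample, with adjusted p up to 0.115, namely without any of the controls but the 9-month female and without any spastic sample but the second 2-month female. Gphn, which encodes the scaffold gephyrin of GABA-A and glycine receptors, did not pass at 0.11 (adjusted p = 0.536). Gabarap and Gabarapl2 read 0.38 and 0.26, with adjusted p of 0.0627 and 0.0569.

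**Figure D4:**
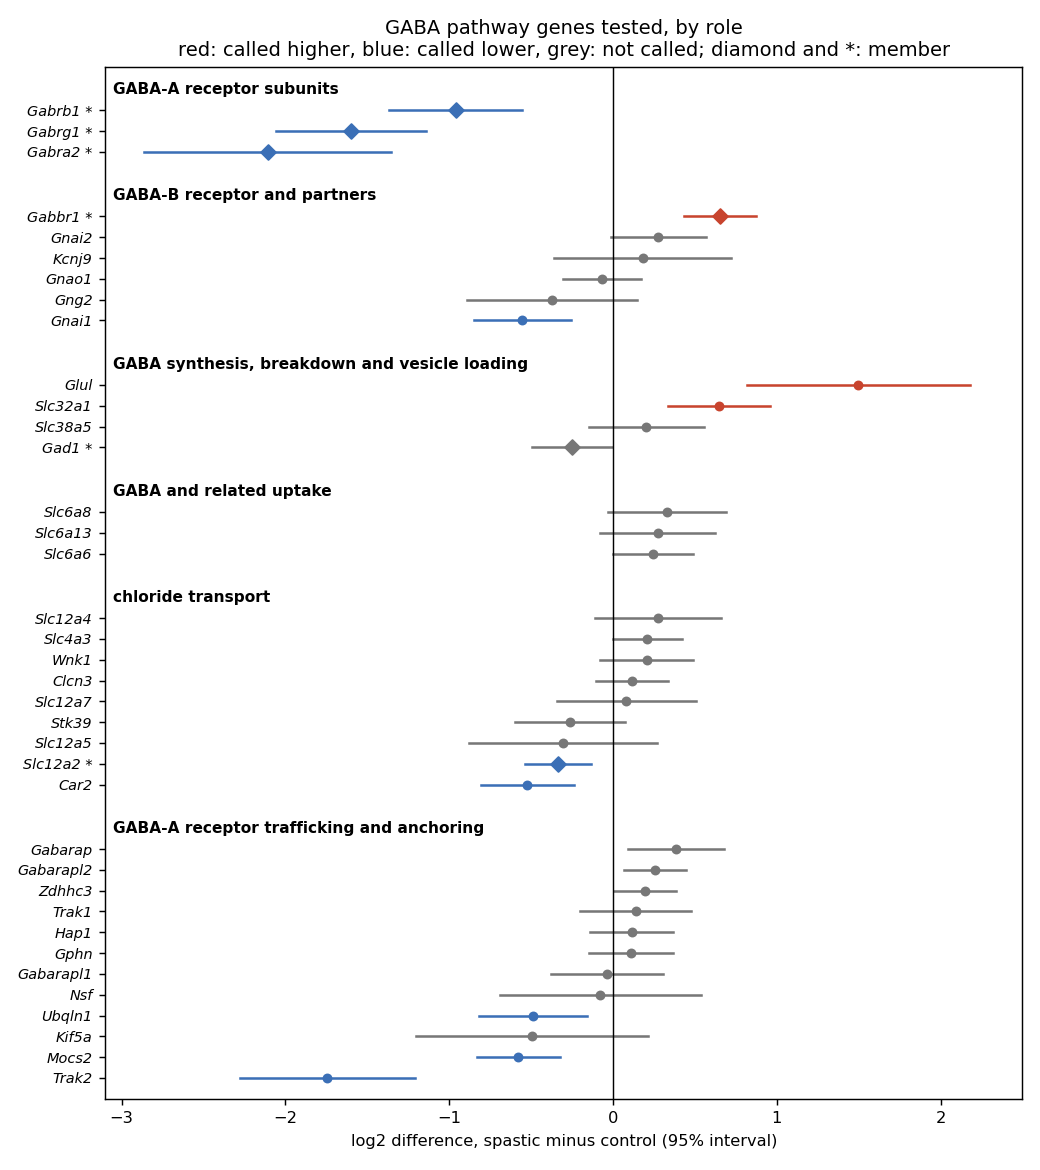
Log2 difference, spastic minus control, with its 95% interval for the 37 tested genes of the GABA lists, grouped by role; red marks genes called higher, blue called lower, grey not called, and diamonds the 6 genes. The 3 GABA-A subunits lie between -2.11 and -0.96, while the uptake genes lie between 0.24 and 0.33.

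Genes around the chromosome 5 cluster were read in gene order. Of 6 tested neighbours, 3 lay on each side of the cluster, and 3 were lower and 0 higher, beside 9.93% lower among all probe sets. Limch1 read -0.40 (adjusted p = 0.0129), Slc30a9 -0.35 (adjusted p = 0.0505) and Atp8a1 -1.37 (adjusted p = 0.0366) on the side of Gabrg1. Fryl read 0.26, Ociad1 0.36 and Sgcb -0.75 (adjusted p = 0.0218) on the side of Gabrb1. The nearest neighbour with a value, Atp8a1, is the 7th gene from the cluster, so no tested gene adjoins it.

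Across the 10 samples Gabra2 and Gabrg1 followed each other with a Pearson correlation of 0.92, and 0.46 once group means were removed. Gabrg1 and Gabbr1 correlated at -0.89, and 0.10 after group means were removed. For Gabra2 and Gabrb1 the values were 0.71 and 0.58. After group means were removed, Gad1 correlated at -0.40 with Gabra2, -0.69 with Gabrg1 and -0.78 with Gabrb1. These samples share groups, ages and RNA quality, and the values are a description only.

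The tested genes most like each of the 6 are given with their Pearson correlation over the 10 samples. The correlation after removal of group means stands in second place, where the single B6C3Fe sample carries no information. These genes were picked as the highest of 5694 named genes tested, so high values follow from the choice and are a description only. Gabra2 was followed most closely by Sf3b1 (0.97 and 0.92), Map2 (0.97 and 0.84) and Mef2a (0.95 and 0.89). Gabrg1 had Btbd3 (0.99 and 0.90), Zfp930 (0.99 and 0.85) and Kif5c (0.98 and 0.82). Gabrb1 had Enah (0.96 and 0.85), St8sia3 (0.94 and 0.86) and Rora (0.94 and 0.77). Gabbr1 had Inpp5a (0.98 and 0.84), Pld3 (0.97 and 0.91) and Csnk1g2 (0.97 and 0.78). Gad1 had Otud4 (0.97 and 0.93), Clip4 (0.94 and 0.91) and Rsrp1 (0.94 and 0.82). Slc12a2 had Idh1 (0.98 and 0.95), Wipf1 (0.95 and 0.80) and Trhr (0.94 and 0.71). Map2, a protein of dendrites, is itself on the list of neuronal markers and fell by 2.85 on the log2 scale (limma, adjusted p = 0.00256). That was the lowest value of the 15 markers tested there, of which 7 differences were above 0 and 8 below (median -0.01). The spastic mean of Map2, at 6.43, lay below the filter on low values, against 9.33 in controls and 9.38 in B6C3Fe. The spastic mean of Kif5c, at 6.12, did so too, against 9.05 in controls and 8.48 in B6C3Fe. Map2 and Kif5c were thus tested only through their control and B6C3Fe levels, and the floor may understate their falls.

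Markers of cell types were read in the same comparison, in which 9.83% of all probe sets were higher and 9.93% lower. Of 12 inhibitory interneuron markers tested, 3 were higher and 1 lower with a median difference of 0.07. Their summed intensity was 37217 to 44404 in controls and 44264 to 56448 in spastic samples. That sum holds the bright Slc32a1, with means of 12.67 in controls and 13.31 in spastic samples. It leaves out Gad2, which was below the filter at 7.85 in controls and 6.72 in spastic samples. Of 15 neuronal markers, 1 was higher and 3 lower (median -0.01), with sums of 90479 to 106181 and 89119 to 115819. Astrocyte markers gave 1 higher and 2 lower of 11 (median -0.25), with sums of 75426 to 96552 and 63505 to 96309. Endothelial markers gave 7 higher and 0 lower of 9 (median 1.04), with sums of 4023 to 5220 in controls, 8344 to 9605 in spastic samples and 4931 in B6C3Fe. Microglial markers gave 0 higher and 4 lower of 10 (median -0.30), with sums of 16692 to 19284 and 11461 to 17145. Oligodendrocyte markers gave 1 higher and 3 lower of 9 (median -0.31), with sums of 71950 to 84271 and 59365 to 88637. Motor neuron markers gave 3 higher and 1 lower of 6 (median 0.20), with sums of 22184 to 28104 and 21750 to 27871. Skeletal muscle markers gave 0 higher and 2 lower of 9 (median -0.70), with sums of 13960 to 19281 and 8606 to 20237, and markers of sensory neurons and Schwann cells 0 higher and 1 lower of 3 (median 0.01). The sums are of linear intensity, so the brightest probe sets weigh most in them. The part of cell makeup in the 6 genes was not tested.

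**Figure D5:**
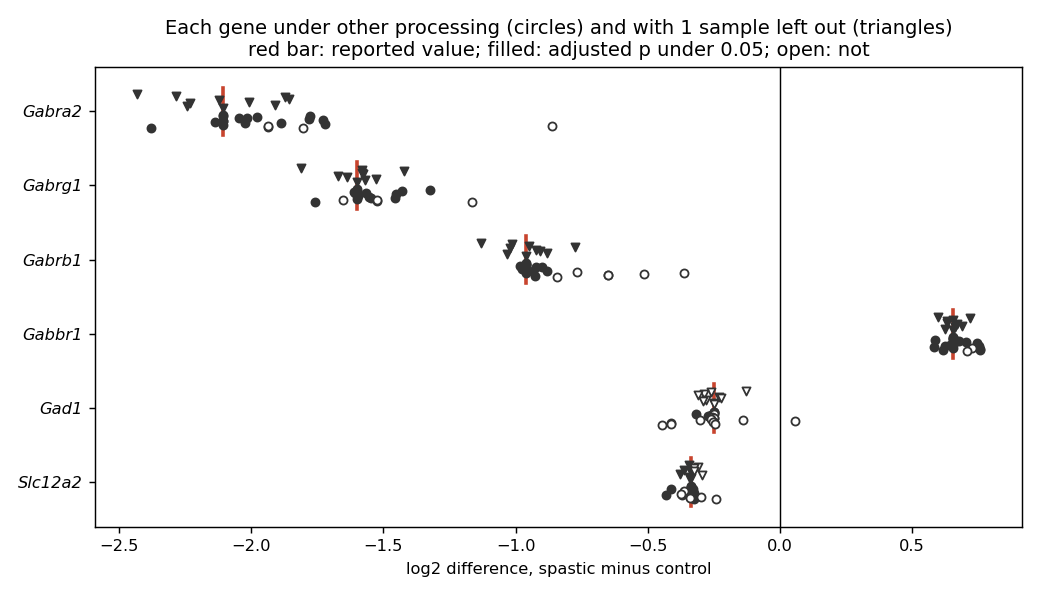
Log2 difference, spastic minus control, of the 6 genes under other processing (circles) and with 1 sample left out (triangles); red bars are the reported values, filled symbols have an adjusted p under 0.05 and open ones do not. Gabra2, Gabrg1, Gabrb1 and Slc12a2 stay below 0 and Gabbr1 above 0 in every fit shown, and Gad1 is above 0 in 1, at 0.06.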

How the data were processed

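Spinal cord RNA was measured on 16 single-colour arrays. The authors' deposited intensity values are linear, and their trimmed mean was 800.4 to 800.5 on every array, so they were taken as already scaled and used as deposited. For the software behind them, the sources used here give no name. The median intensity was 289 to 383.6, and the number of arrays limits the precision. Values below the 20th percentile (60.9, log2 5.93) were raised to it before log2, which understates differences of dim genes. A probe set was tested if its mean exceeded the 40th percentile of means (log2 7.62), and the brightest stood for a gene. Names came from GEO's platform annotation. Groups, sex and age came from titles. Arrays lettered a and b were averaged to 10 samples (consensus correlation 0.23). limma 3.58.1 in R 4.3.3 (lmFit, eBayes with trend) was fitted to group and titled sex over all 10 samples, and p-values were adjusted by Benjamini-Hochberg over 6427 probe sets, with 0.05 as threshold. Code was tested on simulated data. Genes named are the 6, genes of the GABA lists, the 3 most like each of the 6, tested neighbours of the cluster, and Glrb. The genes and lists were chosen with earlier results of these data known. Alternatives changed the filter, floor, normalization, sex term, age term, replicates and RNA ratio.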

Additional observations from a re-analysis of the deposited data

How the results depend on the processing

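The 1270 probe sets called between spastic and control became 759 with only arrays lettered a, 684 with sex by Xist, 701 with B6C3Fe among controls and log2 of age, 3 with log2 of age and no B6C3Fe (chosen after seeing the data), 165 with titled females only, 396 without the titled male spastic samples and 9 with the Pcx ratio. Leaving out 1 sample gave 723 to 1273, with 790 without the 9-month male, 723 without the 12-month female and 810 without the 12-month male control. Quantile normalization moved the median of all differences from -0.02 to 0.04.

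With the letter as a replicate block, Gad1 passed at -0.27 (adjusted p = 0.041), and none of the other 5 calls changed. The letters name arrays of 1 title and do not pair samples across groups. Gad1 also passed with quantile normalization (-0.32), with each array counted alone (-0.26) and sample as a random block (-0.26). It ran from -0.31 to -0.13 with 1 sample left out, and passed in none of those fits.

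Slc12a2 no longer passed with only arrays lettered a (-0.36), sex by Xist (-0.38), log2 of age and no B6C3Fe (-0.30), females only (-0.34), no spastic samples titled male (-0.34) or the Pcx ratio (-0.24), and ran from -0.38 to -0.30 with 1 sample left out. Gabrb1 did not pass with B6C3Fe among controls (-0.77), the same with log2 of age (-0.36), log2 of age and no B6C3Fe (-0.51), females only (-0.65), no spastic samples titled male (-0.65) or the Pcx ratio (-0.84), and ran from -1.13 to -0.77. Under log2 of age with no B6C3Fe, females only and the Pcx ratio, Gabra2 was -0.86, -1.94 and -1.81, and Gabrg1 -1.65, -1.52 and -1.16, none past the threshold. With 1 sample left out they ran from -2.43 to -1.86 and from -1.81 to -1.42. Gabbr1 did not pass with log2 of age and no B6C3Fe (0.73) or the Pcx ratio (0.71), and ran from 0.60 to 0.72. Ubqln1 turned to 0.016 with the Pcx ratio. With the filter at the 60th percentile, Gabra2 and Gabrg1 were not tested. The causes were not tested.

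The 132 called between spastic and B6C3Fe became 254 with no filter, 626 with every array, 323 with a random block, 515 with the letter block, 9 with only arrays lettered a, 49 without trend, 7 with sex by Xist, 6 without spastic samples titled male, 206 without array a of the 9-month female control and 11 with the Pcx ratio. With 1 sample left out they were 10 to 197, and 32 without the spastic sample titled male of 3 or more months. The 25 between B6C3Fe and control became 164 with no filter, 43 with quantile normalization, 520 with every array, 231 with a random block, 525 with the letter block, 8 with only arrays lettered a, 4 without trend, 43 with no sex term, 7 with sex by Xist, 9 without the titled male spastic samples and 54 with the Pcx ratio. They were 4 to 26 with 1 sample left out. With every array, the count went from 0 to 10 for age within controls, from 0 to 3 for sex and from 1 to 0 for sev, which was 2 with the Pcx ratio.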
